A study of Mus musculus with 44 samples.

Results

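Igf1, Pdgfc, Pdgfb, Vegfa, Vegfb, Hgf, Hbegf and Tgfb1 encode secreted growth factors that MFs can supply to regenerating muscle. They were taken from a fixed list of gene symbols, with no cutoff on their values, but with earlier results of these data known. All 8 were read by a probe set of their own among the 19938 genes of the Affymetrix mouse arrays. The 44 arrays held MFs of the tibialis anterior, a shin muscle, after its fibres had been killed with cardiotoxin, which is followed by regeneration. Cells were first enriched with beads for CD45, a marker of blood-derived cells, and then sorted as Ly6C+ F4/80low or Ly6C- F4/80high. The KO mice (C57B6/J, PPARg fl/fl, LysM Cre+) carry floxed alleles of the nuclear receptor PPARg and a Cre expressed from the myeloid LysM locus, and the WT mice were C57B6/J. Day 1 gave Ly6C+ MFs of KO (n = 4) and WT (n = 4) mice. Day 2 gave Ly6C- MFs of KO (n = 5), rosiglitazone-treated WT (n = 3) and untreated WT mice (n = 6), and Ly6C+ MFs in the same numbers. Rosiglitazone is a drug that activates PPARg. Day 4 gave KO (n = 4) and WT (n = 4) arrays, all labelled Ly6C+ F4/80low. All groups shared the injury, and there was no uninjured group.

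Insulin-like growth factor 1, the product of Igf1, acts through Igf1r and is known in muscle for driving the growth of myoblasts and new fibres. The PDGF chains (Pdgfb, Pdgfc) signal through Pdgfra and Pdgfrb on fibroblasts and pericytes, Vegfa drives vessel growth through Kdr and Flt1, and Vegfb binds Flt1. Hgf acts through Met and is known for waking satellite cells, Hbegf is an EGF-family ligand of Egfr, and Tgfb1, which acts through Tgfbr1 and Tgfbr2, is known for matrix deposition by fibroblasts. Vegfa is a textbook target of HIF, the transcription factor stabilised when oxygen is low.

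The stretches before the transcription starts of 4 of the genes are shown because 3 of them (Igf1, Pdgfc, Vegfb) were higher together in Ly6C- MFs and at day 4, whereas Vegfa was lower at day 4. Each run holds 250 bases, 5′ to 3′ on the strand of the gene, from RefSeq on GRCm38.p6, and ends at the base before the start. Capitals mark matches, on either strand, to ACGTG (the HIF core), AGGTCA (the half-site of nuclear receptors), TGACTCA (AP-1) or GGGCGG (the GC box). Igf1 lies at chr10:87860861-87861110 (plus strand), Pdgfc at chr3:81036166-81036415 (plus), Vegfb at chr19:6987652-6987901 (minus) and Vegfa at chr17:46032378-46032627 (minus). The Igf1 window lies inside the annotated gene (87858265 to 87937047), before an internal start. The windows of Pdgfc, Vegfb and Vegfa adjoin the outer edge of the annotated gene.
Igf1: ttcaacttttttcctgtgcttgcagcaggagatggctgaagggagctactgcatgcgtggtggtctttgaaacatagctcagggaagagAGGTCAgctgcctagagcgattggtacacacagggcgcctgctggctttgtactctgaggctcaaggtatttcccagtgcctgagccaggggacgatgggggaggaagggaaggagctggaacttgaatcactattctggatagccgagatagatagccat
Pdgfc: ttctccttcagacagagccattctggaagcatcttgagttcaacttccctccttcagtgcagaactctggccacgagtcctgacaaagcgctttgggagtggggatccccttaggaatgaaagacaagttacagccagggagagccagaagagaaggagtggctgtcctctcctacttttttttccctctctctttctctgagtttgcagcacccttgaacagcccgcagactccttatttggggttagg
Vegfb: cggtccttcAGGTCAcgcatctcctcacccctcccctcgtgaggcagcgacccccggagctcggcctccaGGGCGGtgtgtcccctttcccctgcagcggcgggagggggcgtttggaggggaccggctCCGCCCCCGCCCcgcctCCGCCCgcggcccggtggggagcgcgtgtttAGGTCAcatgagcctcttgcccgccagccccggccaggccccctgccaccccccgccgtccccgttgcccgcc
Vegfa: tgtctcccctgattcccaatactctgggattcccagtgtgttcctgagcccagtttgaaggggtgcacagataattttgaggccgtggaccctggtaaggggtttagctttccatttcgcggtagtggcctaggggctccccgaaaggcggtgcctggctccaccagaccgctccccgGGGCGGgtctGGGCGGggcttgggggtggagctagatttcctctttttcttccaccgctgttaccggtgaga

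Of the 8 genes, 6 matched the promoter table. AGGTCA occurred once in the Igf1 window, 161 bases before the internal start, and at 241 and 73 bases before the start of Vegfb. It occurred in 14% of the 32851 windows of this length. GC boxes, found in 32.7% of windows, occurred at 72 and 62 bases before the start of Vegfa and at 4 positions in the Vegfb window, of which those at 121 and 115 bases adjoin. No window shown held ACGTG (16.6% of windows) or TGACTCA (4.46%), and the Pdgfc window held none of the 4 motifs. The Hgf window, not shown, also held none, and Hgf too was higher in Ly6C- MFs and at day 4. The GC content was 76.4% for Vegfb, 59.2% for Vegfa, 52.8% for Igf1 and 50.8% for Pdgfc, against a median of 52.4% over all windows. A match of letters shows no binding, and an absent match in this window says nothing of a factor.

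The labels were checked before the comparisons. The day 4 arrays, labelled Ly6C+, had low monocyte markers: the mean of 6 of them lay at 8.15 to 8.59 in KO and 8.13 to 8.42 in WT, against 8.71 to 9.40 in WT day 2 Ly6C- and 11.4 to 11.8 in WT day 2 Ly6C+ arrays. Of these 6 markers, 4 were lower and 2 higher at day 4 than in day 2 Ly6C- arrays, in KO as in WT. A Ly6c probe set that both Ly6c1 and Ly6c2 share, the genes behind the Ly6C gate, was intermediate in WT arrays, at 9.58 to 10.09 in WT day 4 arrays, against 8.61 to 8.94 in WT day 2 Ly6C- and 11.74 to 12.15 in WT day 2 Ly6C+ arrays, but in KO arrays it overlapped the Ly6C- arrays, at 9.21 to 10.78 at day 4, against 8.87 to 9.55 in day 2 Ly6C- and 11.83 to 12.08 in day 2 Ly6C+ arrays. Adgre1, the gene behind the F4/80high gate, was at 12.16 to 12.37 at day 4, against 11.94 to 12.16 in WT day 2 Ly6C- and 11.33 to 11.68 in WT day 2 Ly6C+ arrays. Day 4 was therefore set against both day 2 subsets. Lyz2, the gene into which LysM Cre is inserted, was at 9.07 to 9.96 in all KO arrays and at 12.64 to 13.19 in the WT arrays, except WT day 2 replicates 1 to 3 of both subsets, at 8.67 to 9.29. These 6 arrays went against their label, so WT is used below for arrays labelled WT and where leaving them out changes a call for the 8 genes the value without them is given. Pparg was not lower in KO arrays (10.25 to 10.54 in KO day 2 Ly6C+, against 9.95 to 11.00 in WT day 2 Ly6C+), and whether its probes lie in the deleted part is not given in the sources used here. In sorted bulk samples, fewer cells of a type and less RNA per cell cannot be told apart. The labels call the arrays biological replicates, but the series text speaks of 3 animals, so the p-values measure the spread between these arrays only.

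The genes differed widely in how far their level moved over the 10 groups. The highest and lowest group means of Igf1 lay 4.05 log2 units apart, or 16.5-fold, a span larger than that of 99.8% of genes. Vegfa spanned 3.69 log2 units, Pdgfc 2.71, Pdgfb 2.42 and Hgf 1.93. Vegfb spanned 1.52 and Hbegf 1.23. Tgfb1 spanned 0.50 log2 units, near the median span of 0.45 over all genes. Vegfa was also the most variable within groups, with a pooled SD of 0.64 log2 units that exceeded that of 99.9% of genes, whereas the SD of 0.11 for Vegfb was below the median of 0.147.

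**Figure D1:**
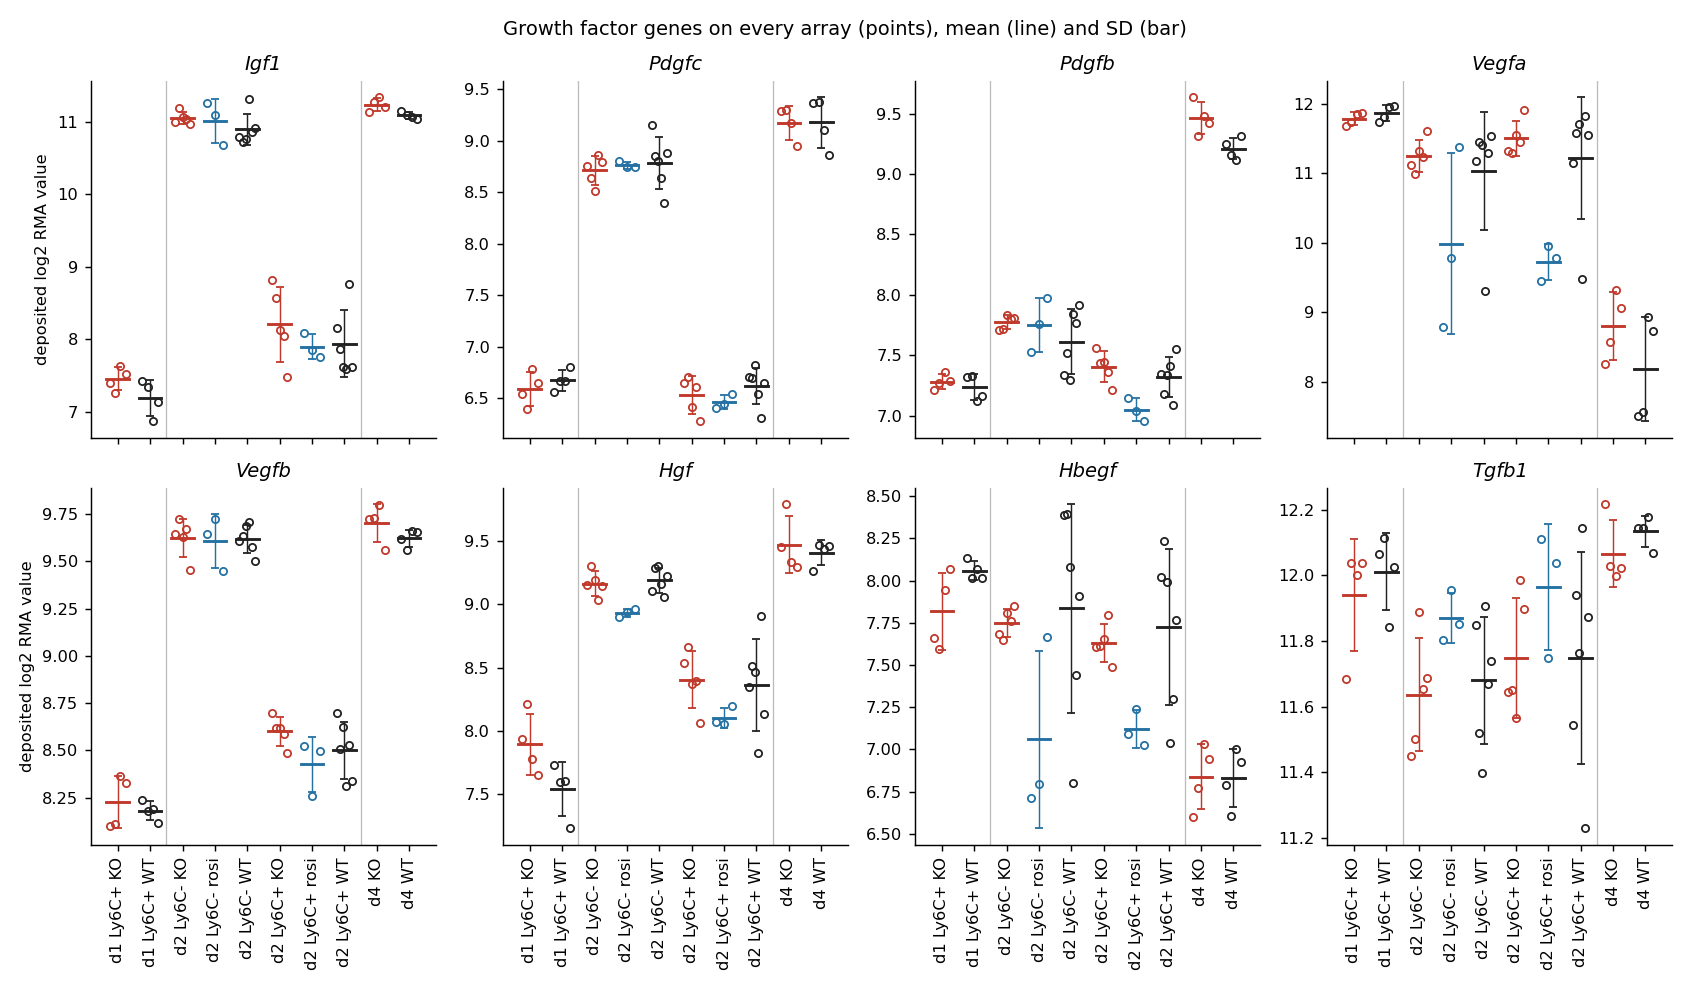
Log2 RMA level (vertical axis) of each of the 8 genes in every array, by group (horizontal axis), with arrays as points, group means as lines and SD as bars (red for KO, blue for rosiglitazone, black for untreated WT). Igf1 formed a low block (day 1 and day 2 Ly6C+) and a high block (day 2 Ly6C- and day 4) with a gap of 2.69 between neighbouring group means, and WT day 2 replicate 4 stood at 9.31 (Ly6C-) and 9.48 (Ly6C+) for Vegfa, below the other untreated WT day 2 arrays.

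The first question was how the subsets differed at day 2. Igf1, Pdgfc, Vegfb and Hgf were clearly higher in Ly6C- than in Ly6C+ MFs, Pdgfb was slightly higher, and Vegfa, Hbegf and Tgfb1 did not pass the test. Igf1 ranged over 10.72, 10.83 and 11.31 (lowest, median and highest log2 level) in WT Ly6C- arrays, against 7.58, 7.74 and 8.76 in WT Ly6C+ arrays. The sets were far apart, with no array of either in the range of the other. The difference was 2.96 log2 units (SE 0.16), or 7.79-fold, with a limma adjusted p of 7.45e-19. With WT day 2 replicates 1 to 3 only it was 2.88, and with replicates 4 to 6 only 3.05.

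Pdgfc, a PDGF chain that needs proteolytic activation, was at 8.40, 8.83 and 9.15 in WT Ly6C- arrays, against 6.31, 6.67 and 6.82 in WT Ly6C+ arrays. Again the arrays did not overlap, and the difference was 2.17 log2 units (4.50-fold, SE 0.10, limma adjusted p = 5.24e-21). Vegfb was at 9.50, 9.62 and 9.71 in WT Ly6C- arrays, against 8.31, 8.52 and 8.70 in WT Ly6C+ arrays. Its arrays were tight within each subset and did not overlap, with a difference of 1.12 (2.17-fold, SE 0.07, limma adjusted p = 1.37e-17). Hgf was at 9.06, 9.19 and 9.30 in WT Ly6C- arrays, against 7.83, 8.41 and 8.90 in WT Ly6C+ arrays. The Ly6C+ arrays were the more scattered, yet none reached the Ly6C- arrays, and the difference was 0.83 (1.77-fold, SE 0.11, limma adjusted p = 1.48e-07).

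Pdgfb, the chain known for recruiting pericytes, was at 7.29, 7.64 and 7.92 in WT Ly6C- arrays, against 7.09, 7.34 and 7.55 in WT Ly6C+ arrays. The subsets overlapped, and the difference of 0.29 (SE 0.09, limma adjusted p = 0.0068) was 0.09 with replicates 1 to 3 only (adjusted p = 0.46) and 0.49 with replicates 4 to 6 only. Vegfa differed by -0.19 log2 units (95% interval -0.87 to 0.50, adjusted p = 0.666), Hbegf by 0.11 (adjusted p = 0.638) and Tgfb1 by -0.07 (adjusted p = 0.601). The Vegfa interval takes the arrays as unpaired, although replicate 4 was the lowest in both subsets (9.31 in Ly6C- and 9.48 in Ly6C+). It does not show that the subsets were alike. In all, 5 of the 8 genes passed where 45.2% of all genes did (22.2% in the higher direction), 4 with replicates 1 to 3 only and 5 with replicates 4 to 6 only. For 4 of 8 the arrays did not overlap, as for 14.8% of all genes. Markers of other cells were counted in this contrast, where 18.6% of all genes were lower in KO and 23% in WT. Of 7 endothelial markers 3 were lower in Ly6C- MFs in KO and 6 in WT, of 8 fibroblast markers 0 in KO and 5 in WT, and of 7 T and NK cell markers 2 in KO and 5 in WT, with none higher. Of 10 neutrophil markers 5 were lower and 1 higher in each genotype. The mean of the endothelial markers was 6.29 to 6.55 in WT Ly6C- arrays, against 6.40 to 7.18 in WT Ly6C+ arrays, and that of the fibroblast markers 6.19 to 6.45 in WT Ly6C- arrays, against 6.25 to 7.13 in WT Ly6C+ arrays. Their part in the subset differences was not tested.

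Igf1, Pdgfc, Vegfb, Hgf and Pdgfb passed also in KO and in rosiglitazone-treated MFs. In KO mice, where 38.4% of genes passed (19.8% higher), Igf1 was at 10.99, 11.19, 11.06, 11.04 and 10.97 in Ly6C- arrays, against 8.82, 8.56, 8.13, 8.04 and 7.48 in Ly6C+ arrays. The KO Ly6C+ arrays spread over more than a log2 unit, while the Ly6C- arrays were close to each other. The KO subset difference was 2.85 for Igf1, 2.18 for Pdgfc, 1.02 for Vegfb, 0.76 for Hgf and 0.37 for Pdgfb. For Vegfa it was -0.25 and did not pass, but it passed with a replicate block in limma (adjusted p = 0.00388). After rosiglitazone, where 23.2% of genes passed (14.6% higher), Igf1 was at 11.26, 11.09 and 10.67 in Ly6C- arrays, against 8.09, 7.85 and 7.76 in Ly6C+ arrays. The corresponding differences were 3.11 for Igf1, 2.30 for Pdgfc, 1.18 for Vegfb, 0.83 for Hgf and 0.71 for Pdgfb. The test of whether genotype altered the subset difference passed for 0 of 8 genes (0.01% of all genes), and the test for rosiglitazone also passed for 0 of 8 (0.015%), with Pdgfb differing by 0.41 log2 units (adjusted p = 0.438). Pdgfb passed this test with array weights (0.62, adjusted p = 0.017) and with WT day 2 replicates 1 to 3 only (0.61, adjusted p = 0.0092). Pdgfc was at 8.76, 8.64, 8.52, 8.87 and 8.80 in KO Ly6C- arrays, against 6.65, 6.71, 6.42, 6.61 and 6.27 in KO Ly6C+ arrays. Each subset kept within a narrow range, far from the other.

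**Figure D2:**
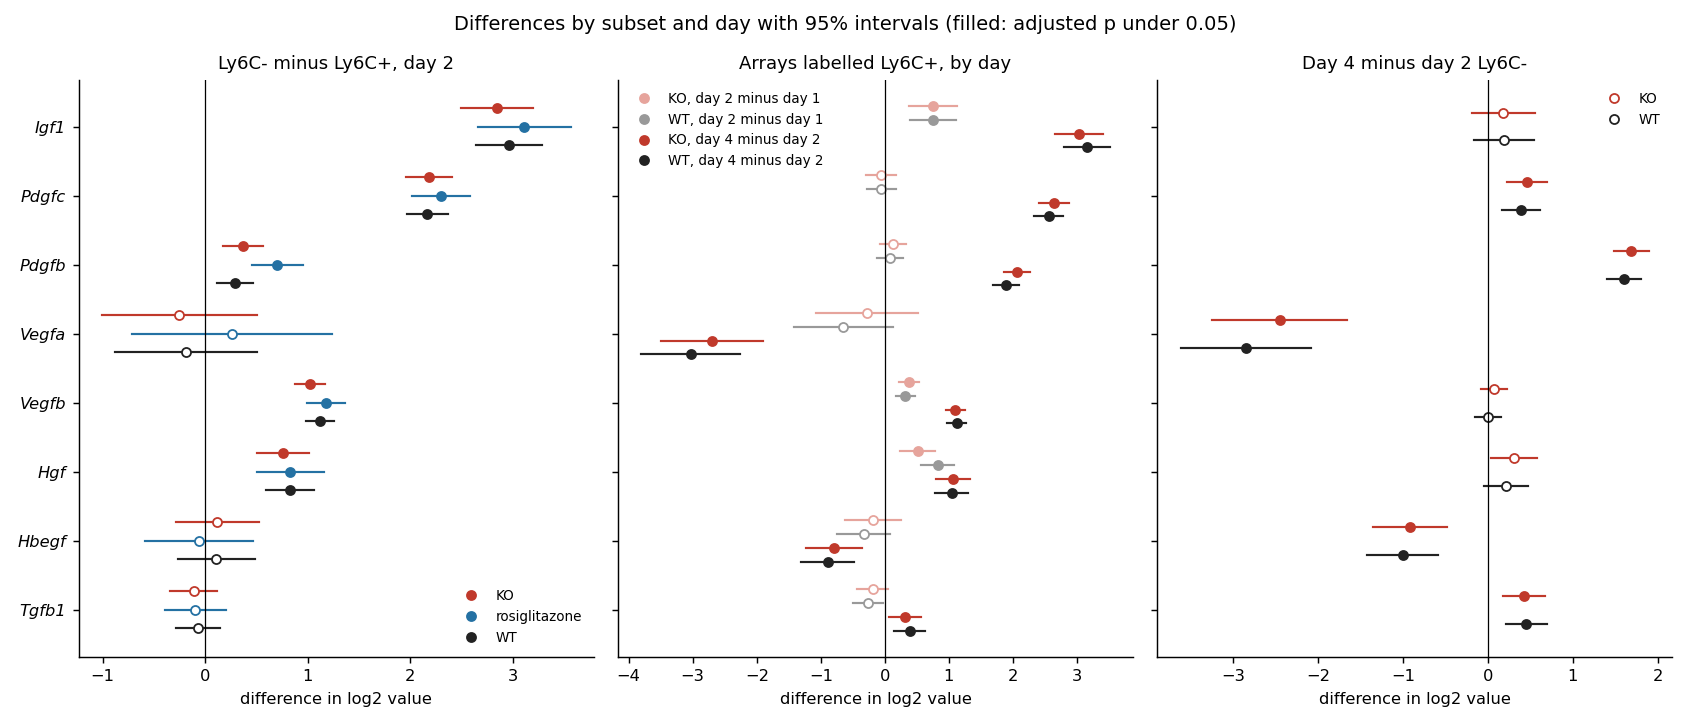
Differences in log2 level (horizontal axes) with 95% intervals for the 8 genes, between the day 2 subsets (Ly6C- minus Ly6C+) and between days (later minus earlier), in the groups named in the legends, with filled points for an adjusted p under 0.05. Igf1 (2.96 in WT) and Pdgfc (2.17) led the subset difference, and Vegfa (-3.03) and Pdgfb (1.89) changed at day 4 without a like difference between the day 2 subsets.

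Ly6C+ MFs of day 2 were modestly higher than those of day 1 in 3 of the 8 genes (Igf1, Vegfb and Hgf) in each genotype, against 8.64% of all genes in KO mice (6.06% higher) and 9.69% in WT mice (6.51% higher). Hgf was at 7.83, 8.41 and 8.90 (lowest, median and highest) in WT day 2 Ly6C+ arrays, against 7.73, 7.59, 7.60 and 7.23 in WT day 1 arrays. Every day 2 array was above every day 1 array, and the difference was 0.83 (SE 0.13, limma adjusted p = 1.97e-05). In KO mice Hgf was at 8.53, 8.67, 8.37, 8.39 and 8.06 at day 2, against 7.94, 8.21, 7.78 and 7.65 at day 1. Here the days overlapped, and the difference of 0.51 had an adjusted p of 0.0122. Igf1 was higher by 0.75 in KO (adjusted p = 0.00765) and by 0.75 in WT (adjusted p = 0.0041), and Vegfb by 0.38 in KO and 0.32 in WT. With WT day 2 replicates 4 to 6 only, Vegfb did not pass in WT (0.21, adjusted p = 0.108), whereas Hbegf, at -0.33 with all arrays (adjusted p = 0.366), was lower and passed (-0.69, adjusted p = 0.0123). Vegfa differed by -0.65 in WT (adjusted p = 0.331). With only the arrays of the WT groups compared in the fit, Hgf alone passed of the 3 (Igf1 adjusted p = 0.0823, Vegfb 0.0849). Of 10 neutrophil markers 3 were lower at day 2 in KO (2.58% of all genes) and 4 in WT (3.17%), with none higher. Their part in these differences was not tested.

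At day 4 all 8 genes differed from the day 2 Ly6C+ arrays in both genotypes, against 44.8% of all genes in KO (22.3% higher, 22.5% lower) and 49.8% in WT (23.8% higher, 26% lower). Igf1, Pdgfc, Pdgfb, Vegfb, Hgf and Tgfb1 were higher, and Vegfa and Hbegf were lower. These comparisons share the day 2 Ly6C+ arrays with the subset comparison. Igf1 was at 11.13, 11.27, 11.34 and 11.20 in KO day 4 arrays and at 11.14, 11.10, 11.07 and 11.04 in WT day 4 arrays. The range was narrow in both genotypes. The difference from day 2 Ly6C+ was 3.03 in KO and 3.15 in WT (8.90-fold, SE 0.18, limma adjusted p = 1.94e-18). From day 2 Ly6C- it was 0.18 in KO and 0.19 in WT (adjusted p = 0.483), and the arrays of these groups overlapped. At day 4 Vegfb differed by 0.00 from WT day 2 Ly6C- (adjusted p = 0.979) and by 1.12 from WT day 2 Ly6C+. Vegfb was at 9.73, 9.73, 9.80 and 9.56 in KO day 4 arrays and at 9.62, 9.56, 9.66 and 9.65 in WT day 4 arrays, within or next to the range of the day 2 Ly6C- arrays. Hgf was at 9.45, 9.79, 9.33 and 9.30 in KO day 4 arrays and at 9.26, 9.47, 9.44 and 9.46 in WT day 4 arrays. It differed by 0.22 from WT day 2 Ly6C- (adjusted p = 0.225) and by 1.04 from WT day 2 Ly6C+.

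Pdgfb was higher at day 4 than in either day 2 subset. It was at 9.64, 9.31, 9.48 and 9.43 in KO day 4 arrays, against at most 7.83 in any KO day 2 array. In WT mice it was at 9.25, 9.16, 9.12 and 9.32 at day 4, against at most 7.92 in any untreated day 2 array. No day 4 array came within a log2 unit of an earlier one. In KO the difference was 1.69 from day 2 Ly6C- and 2.06 from day 2 Ly6C+ MFs. In WT it was 1.60 from day 2 Ly6C- (3.03-fold, limma adjusted p = 1.07e-16) and 1.89 from day 2 Ly6C+ MFs (3.71-fold, limma adjusted p = 1.77e-19). Pdgfc, at 9.37, 9.38, 9.11 and 8.87 in WT day 4 arrays, was 0.39 higher than in day 2 Ly6C- MFs (adjusted p = 0.00561) and 2.56 higher than in day 2 Ly6C+ MFs. The difference from Ly6C- MFs was 0.24 with WT day 2 replicates 1 to 3 only (adjusted p = 0.104).

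Vegfa was the gene with the largest decrease among the 8. At day 1 it was at 11.68, 11.73, 11.86 and 11.87 in KO arrays and 11.74, 11.80, 11.96 and 11.96 in WT arrays. In KO mice Vegfa was at 8.25, 8.57, 9.33 and 9.06 at day 4, against 11.32, 11.28, 11.55, 11.45 and 11.92 in day 2 Ly6C+ arrays. The KO groups did not overlap, with differences of -2.45 from Ly6C- and -2.70 from Ly6C+ MFs. In WT mice it was at 7.50, 7.57, 8.93 and 8.72 in day 4 arrays, against 9.31, 11.35 and 11.53 (lowest, median and highest) in untreated day 2 Ly6C- and 9.48, 11.57 and 11.82 in untreated day 2 Ly6C+ arrays. The WT day 4 arrays fell into a lower and a higher pair, and all lay below every untreated day 2 array. The difference was -2.85 from day 2 Ly6C- (7.20-fold lower, limma adjusted p = 8.59e-08) and -3.03 from day 2 Ly6C+ (8.20-fold lower, SE 0.38, limma adjusted p = 9.92e-09).

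Hbegf was at 6.79, 6.61, 7.0 and 6.92 in WT day 4 arrays, against 7.04, 7.88 and 8.24 in WT day 2 Ly6C+ arrays. The gap was narrow, and WT day 2 replicate 4 (7.04) lay just above the day 4 arrays. The difference was -0.79 in KO and -0.89 in WT (1.86-fold lower, limma adjusted p = 0.00041), and from day 2 Ly6C- MFs it was -0.91 in KO and -1.0 in WT. Tgfb1 was at 12.15, 12.14, 12.18 and 12.07 in WT day 4 arrays, against 11.23, 11.82 and 12.14 in WT day 2 Ly6C+ arrays. These overlapped, with a difference of 0.32 in KO (adjusted p = 0.0325) and 0.38 in WT (1.31-fold, limma adjusted p = 0.00649). Against the Ly6C- MFs of day 2, 5 of the 8 genes passed in KO (24.8% of all genes, 13.1% higher and 11.8% lower) and in WT (29.3%, 14.1% higher and 15.2% lower), with Pdgfc, Pdgfb and Tgfb1 higher and Vegfa and Hbegf lower at day 4.

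Markers of other cells were counted at day 4 too. Against day 2 Ly6C+ MFs 22.3% of all genes were higher and 22.5% lower in KO. In WT 23.8% were higher and 26% lower. Of 8 skeletal muscle markers, 6 were higher than in day 2 Ly6C+ MFs in KO and 6 in WT, and their mean level was 7.17 to 7.26 in WT day 4 arrays, against 6.58 to 6.78 in WT day 2 Ly6C+ arrays. Of 8 fibroblast markers 4 were higher in KO and 2 in WT, with a mean of 6.74 to 7.20 in WT day 4 arrays and 6.25 to 7.13 in WT day 2 Ly6C+ arrays. Of 7 endothelial markers 2 were lower in KO and 6 in WT. Of 10 neutrophil markers 6 were lower and 1 higher in KO, and 7 lower and 1 higher in WT. The fibroblast count in WT and the endothelial count in KO were near the shares of all genes. Against the Ly6C- MFs of day 2, 8 of 8 skeletal muscle markers were higher in KO and 6 in WT, 5 of 8 fibroblast markers in KO and 6 in WT, 3 of 6 myoblast markers in KO and 5 in WT, and 4 of 6 dendritic cell markers in each. Of all genes 13.1% were higher in this comparison in KO and 14.1% in WT. The mean of the fibroblast markers was 6.19 to 6.45 in WT day 2 Ly6C- arrays. That of the dendritic cell markers was 7.38 to 7.53 in WT day 4 arrays, against 6.50 to 6.62 in WT day 2 Ly6C- arrays. Their part in the day 4 levels of the 8 genes was not tested.

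**Figure D3:**
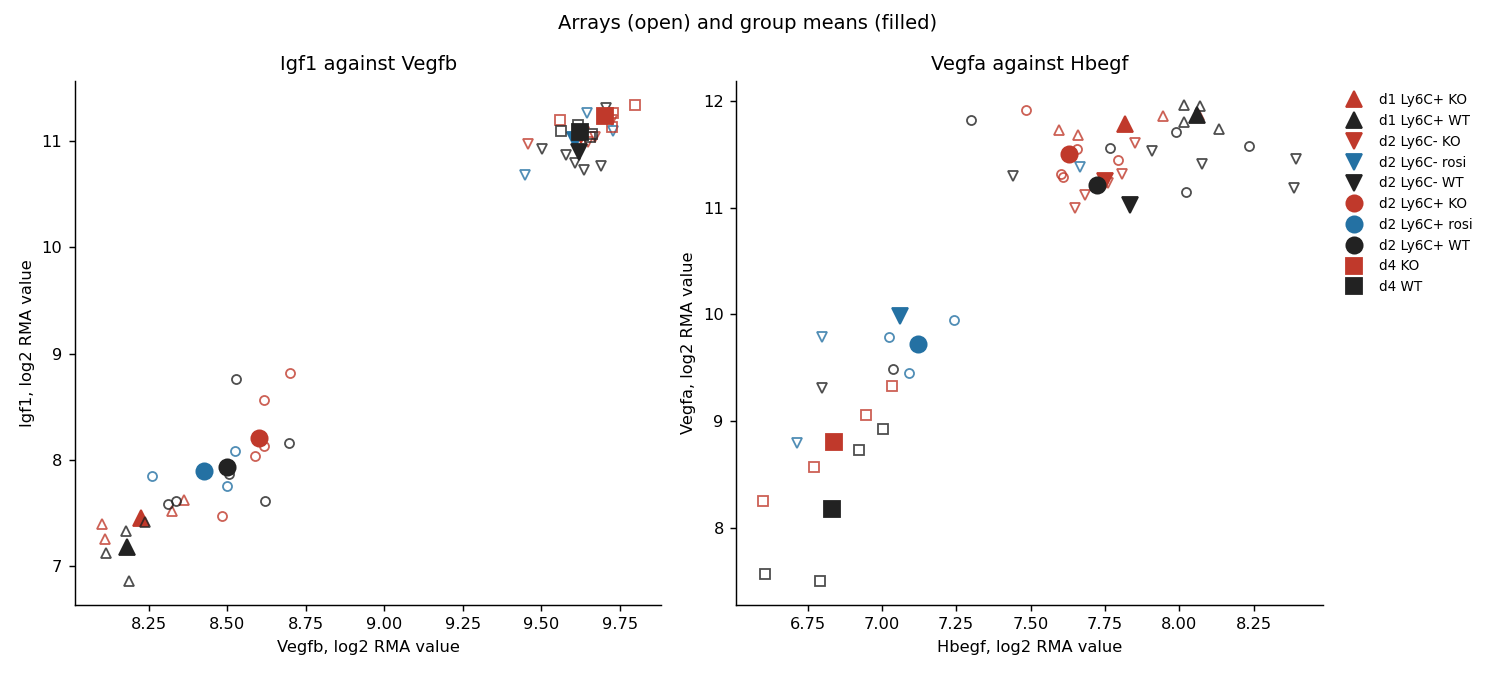
Log2 RMA level of Igf1 against Vegfb (left) and of Vegfa against Hbegf (right), with open symbols for arrays and filled ones for group means. Igf1 and Vegfb lay in a low and a high block on both axes, while Vegfa and Hbegf were low together at day 4 (Vegfa mean 8.80 in KO and 8.18 in WT) and in several rosiglitazone arrays.

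Across the 10 group means the genes fell into patterns. Among the 2991 genes whose means spanned at least 1 log2 unit, the gene with the pattern most like that of Igf1 was Vegfb (Pearson r = 0.999), followed by Arhgap19, Tspan4, Tbc1d19 and Cbx5 (0.997 to 0.996), and Igf1 was in turn the gene most like Vegfb. Igf1 had r = 0.978 with Pdgfc and 0.959 with Hgf. Vegfa was most like Lonrf1, Odc1 and Eid3 (0.992 to 0.991) and had r = 0.951 with Hbegf, but -0.603 with Igf1 and -0.590 with Vegfb. Pdgfb was most like D17H6S56E-5, Cdc25c and Zmynd15, Pdgfc like Mms22l, Pld2 and Aldh7a1, and Hgf like Clec2i, Camk1 and Fcrls. For Hbegf the closest were Ppp4r2, Ankrd33b and Zc3h12c, and for Tgfb1 Tnfrsf14, Cd33 and Fbrsl1, with r of only 0.884 to 0.833. These coefficients describe 10 means that fall into few blocks and share arrays.

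The receptors of these factors were read in the same MFs. Met, the Hgf receptor, was at 9.94 to 10.50 in WT day 1 Ly6C+, 6.50 to 8.32 in WT day 2 Ly6C-, 8.60 to 9.27 in WT day 2 Ly6C+ and 6.77 to 7.17 in WT day 4 arrays. In the WT contrasts where Hgf was higher Met was lower, with differences of -1.19 between the subsets, -1.21 at day 2 relative to day 1 and -2.01 at day 4 relative to day 2 Ly6C+, all past the test. Tgfbr1 was at 11.19 to 11.44 in WT day 4 arrays, against 9.52 to 9.98 in WT day 2 Ly6C+ arrays, a difference of 1.61, and was 0.56 higher in WT Ly6C- than Ly6C+ MFs. Tgfbr2 was higher by 0.66 between the WT subsets and by 0.78 at WT day 4 against day 2 Ly6C+. Flt1, which binds both Vegfa and Vegfb, was lower in Ly6C- than in Ly6C+ MFs by 0.34 in KO and 0.66 in WT. At day 4 against day 2 Ly6C+ it was lower by 0.29 in KO and 0.69 in WT. In day 2 Ly6C+ MFs Flt1 was 0.41 lower in KO than in WT (limma adjusted p = 0.0223). The WT arrays here include those that went against their label. The test of genotype by subset did not pass for Flt1. Neither did genotype by day in limma (adjusted p = 0.553 for days 2 and 1, and 0.449 for days 4 and 2). The mean of the endothelial markers was 6.40 to 7.18 in WT and 6.47 to 6.62 in KO day 2 Ly6C+ arrays. Their part in the Flt1 difference was not tested. The level of Flt1 was low, at 6.67 to 6.93 in WT day 2 Ly6C- and 7.12 to 7.77 in WT day 2 Ly6C+ arrays, against array medians of 6.78 to 6.95. Igf1r differed between the subsets by 0.31 in KO (adjusted p = 0.0114) and by 0.11 in WT (adjusted p = 0.329). At day 4 against day 2 Ly6C+ it differed by 0.08 in KO (adjusted p = 0.541) and by -0.43 in WT (adjusted p = 0.000414), and the test of genotype by day did not pass (adjusted p = 0.22). Pdgfra was lower by 0.24 between the WT subsets, Kdr differed by 0.12, and Egfr and Pdgfrb passed in none of the 19 contrasts. The group means of Pdgfra (5.94 to 6.27), Egfr (6.04 to 6.32) and Pdgfrb (6.25 to 6.55) lay below the array medians.

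The other genes of each pathway were counted from lists. Between the WT subsets, where 22.2% of all genes were higher and 23% lower, 3 of 18 IGF genes were higher and 6 lower, among them Igfbp4, an IGF-binding protein (1.70), Igf2r, which clears IGF2 (1.24), and Igfbp6 (-1.25). Of 5 PDGF genes 1 was higher (Pdgfa, 0.62) and 3 lower, and of 8 VEGF genes 2 were higher, the co-receptors Nrp1 (1.37) and Nrp2 (0.99), and 4 lower, such as the ligand Pgf (-0.82). None of 10 HGF genes was higher and 6 were lower, with Spint1, an inhibitor of the Hgf activator, at -0.93 and the urokinase receptor Plaur at -0.78. In the EGF list 4 of 16 were higher and 3 lower, with Cd9, a tetraspanin that binds the Hbegf precursor, at 1.94 and the ligand Nrg1 at -1.44. In the TGF-beta list 3 of 22 were higher and 12 lower, with the signal transducer Smad3 at -1.47. The list medians lay between -0.06 (EGF) and -0.25 (HGF), against -0.07 over all genes. At day 4 against day 2 Ly6C+, 5 of the 18 IGF genes were higher and 5 lower in KO mice, and 4 higher and 7 lower in WT mice, with Igfbp4 at 2.19 and Igfbp6 at -1.72 in WT. Of the 22 TGF-beta genes 4 were higher and 13 lower in KO mice, and 4 higher and 14 lower in WT mice, with medians of -0.23 in KO and -0.26 in WT mice. Over all genes 22.3% were higher and 22.5% lower in KO (median -0.08), and 23.8% higher and 26% lower in WT (median -0.09).

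Vegfa was read beside 18 other genes known to respond to low oxygen. At day 4 against day 2 Ly6C+, 11 of the 18 were lower and 2 higher in KO mice (median -0.74, against -0.08 over all genes, of which 22.5% were lower). In WT mice 13 were lower and 2 higher (median -0.76, against -0.09 over all genes, of which 26% were lower), and against the WT Ly6C- MFs of day 2, 10 were lower and 1 higher (median -0.41, with 15.2% of all genes lower). Egln3, a prolyl hydroxylase that marks HIF for decay, differed by -2.50 between day 4 and WT day 2 Ly6C+ MFs, and Ero1a, an oxidase of the endoplasmic reticulum, by -2.27. Slc2a1, the glucose transporter, differed by -2.33. The 18 genes and Vegfa did not run together in every contrast. In Ly6C- against Ly6C+ MFs of day 2, 7 were lower and 3 higher in each genotype, while Vegfa did not pass. Their median was -0.32 in KO (18.6% of all genes lower) and -0.23 in WT (23% lower). At WT day 2 against day 1 in Ly6C+ MFs, 2 were higher and 0 lower (median 0.12), while Vegfa differed by -0.65 and did not pass. The mean over the 18 genes was 8.64 to 8.78 in WT day 4 arrays and 9.42 to 9.94 in WT day 2 Ly6C+ arrays other than replicate 4. In replicate 4 it was 8.80, and this array was the lowest of its group for 14 of the 18 genes, as it was for 21.8% of all genes. In the Ly6C- subset replicate 4 was at 8.95, against 9.23 to 9.46 in the other replicates, and lowest for 12 of 18 genes (17.2% of all genes).

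**Figure D4:**
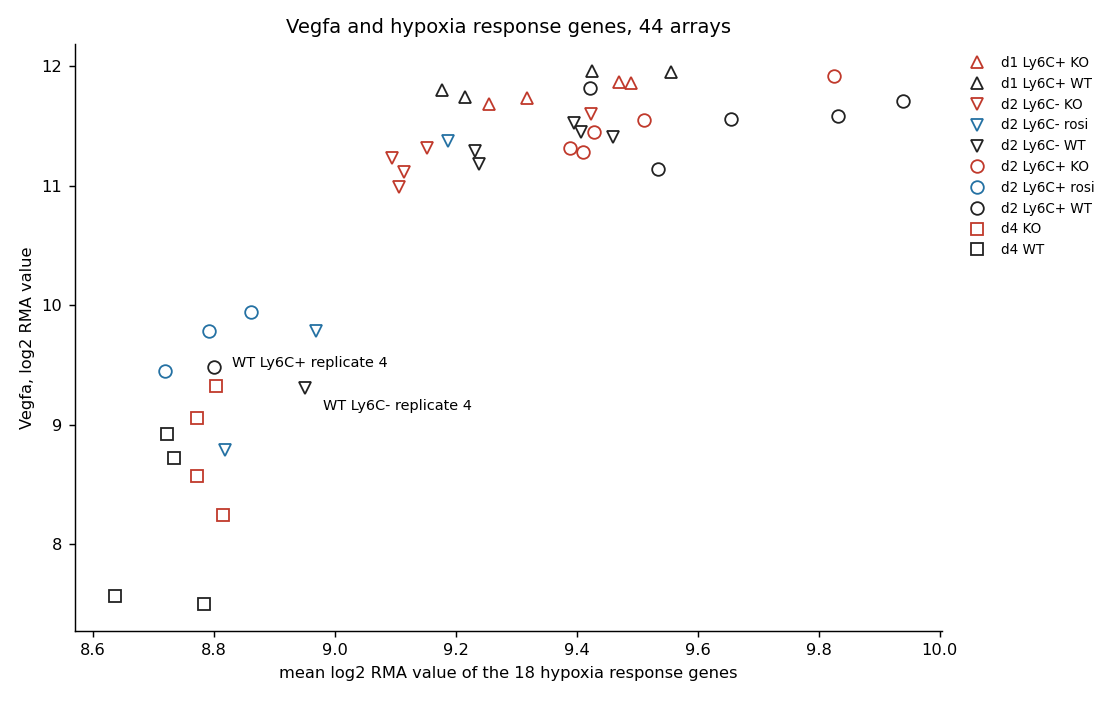
Vegfa log2 level (vertical axis) against the mean log2 level of 18 other hypoxia-response genes (horizontal axis), 1 point per array, by group. WT day 2 replicate 4 of each subset (8.95 in Ly6C- and 8.80 in Ly6C+ on the horizontal axis) lay beside 5 of the 6 rosiglitazone arrays, away from the other untreated WT day 2 arrays.

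KO and WT MFs were compared at each day. None of the 8 genes passed between KO and WT arrays in any of the 4 comparisons by limma, where 0.0351% of all genes passed at day 1, 0.201% at day 2 in Ly6C-, 1.88% at day 2 in Ly6C+ and 0.0652% at day 4. At an unadjusted p under 0.05 these were 621, 1977, 3104 and 592 of the 19938 genes. Igf1 was at 7.40, 7.26, 7.63 and 7.52 in KO day 1 arrays, against 7.42, 7.33, 6.86 and 7.13 in WT day 1 arrays. The genotypes overlapped here and at days 2 and 4, with differences of 0.27 at day 1, 0.16 at day 2 in Ly6C-, 0.27 at day 2 in Ly6C+ (95% interval -0.06 to 0.61) and 0.15 at day 4. With array weights the day 2 Ly6C+ difference of Igf1 was 0.45 and passed (adjusted p = 0.0413). Vegfa differed by 0.62 at day 4 (95% interval -0.22 to 1.46). Hgf at day 1 differed by 0.35 (95% interval 0.07 to 0.64, adjusted p = 0.9999) and Pdgfb at day 4 by 0.25 (95% interval 0.04 to 0.47). Neither passed after adjustment, which does not show that the genotypes were alike. Of the 18 hypoxia-response genes none passed in the day 2 Ly6C+ comparison (median 0.05, against -0.02 over all genes). Over the 8 genes and 4 comparisons, the KO minus WT differences ran from -0.24 (Hbegf, day 1) to 0.62 (Vegfa, day 4).

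The arrays that went against their label decided a few of these values. With WT day 2 replicates 1 to 3 only, Hbegf passed in Ly6C- (-0.54, adjusted p = 0.00707) and in Ly6C+ MFs (-0.45, adjusted p = 0.0212), and Pdgfb passed in Ly6C- MFs (0.39, adjusted p = 0.00169). In this setting 2864 of the 19938 genes passed in Ly6C- and 3008 in Ly6C+ MFs, against 40 and 374 with all arrays. With replicates 4 to 6 only, whose Lyz2 level fits their label, Hbegf differed by 0.37 in Ly6C- (adjusted p = 1) and by 0.26 in Ly6C+ MFs (adjusted p = 0.544), in the opposite direction, and Pdgfb in Ly6C- MFs by -0.07 (adjusted p = 1). The tests of whether genotype altered the day differences passed for 0 of the 8 genes between days 2 and 1 (0.01% of all genes) and for 0 between days 4 and 2 (0.0301%).

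Rosiglitazone was compared with no treatment at day 2. Of the 8 genes none passed in Ly6C- MFs, where 0.0351% of all genes (7 genes) passed by limma (1920 genes at an unadjusted p under 0.05), and Vegfa alone passed in Ly6C+ MFs, where 11.1% did (5.6% in the lower direction). The count over all genes in Ly6C- MFs was not stable, with 320 genes without WT replicate 4, 117 without rosiglitazone replicate 3 and 2556 with WT replicates 1 to 3 only. Vegfa was at 9.45, 9.95 and 9.78 in rosiglitazone-treated Ly6C+ arrays, against 9.48, 11.57 and 11.82 (lowest, median and highest) in untreated WT Ly6C+ arrays. The lowest untreated array, replicate 4, lay among the treated ones, and the other 5 lay above them. The difference was -1.49 (2.81-fold lower, SE 0.42, 95% interval -2.33 to -0.65, limma adjusted p = 0.0162). In Ly6C- arrays Vegfa was at 8.79, 9.79 and 11.38 with rosiglitazone, against 9.31, 11.35 and 11.53 without. The treated arrays spread over the whole range, and the difference was -1.04 (95% interval -1.89 to -0.20, adjusted p = 0.41). The subsets were not shown to differ in this (0.45, adjusted p = 0.895).

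The call for Vegfa rested on which untreated arrays were used. Without WT replicate 4 of both subsets, an alternative chosen after seeing the data, the Vegfa difference was -1.39 in Ly6C- (adjusted p = 0.00706) and -1.84 in Ly6C+ MFs (adjusted p = 3.16e-05). With WT replicates 1 to 3 only it was -1.36 in Ly6C- and -1.75 in Ly6C+ MFs, both past the test. With replicates 4 to 6 only it was -0.72 in Ly6C- (adjusted p = 0.999) and -1.23 in Ly6C+ MFs (adjusted p = 0.207). In Ly6C+ MFs the call was also lost without rosiglitazone replicate 1 (-1.35, adjusted p = 0.1) or replicate 3 (-1.52, adjusted p = 0.0557), and when only the arrays of the compared groups entered the fit (adjusted p = 0.148). In Ly6C- MFs the difference passed without rosiglitazone replicate 3 (-1.74, adjusted p = 0.047).

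Of the other genes, Hbegf was at 7.09, 7.24 and 7.02 in rosiglitazone-treated Ly6C+ arrays, against 7.04, 7.88 and 8.24 in untreated WT Ly6C+ arrays. The treated arrays sat at the low end of the untreated range, with a difference of -0.61 (adjusted p = 0.0751), while that in Ly6C- MFs was -0.78 (adjusted p = 0.252). Both passed without WT replicate 4, at -0.98 in Ly6C- (adjusted p = 0.000881) and -0.74 in Ly6C+ MFs (adjusted p = 0.00217), whereas with replicates 4 to 6 only they were -0.32 in Ly6C- and -0.25 in Ly6C+ MFs and did not pass. Igf1 differed by 0.11 in Ly6C- and by -0.04 in Ly6C+ MFs (95% interval -0.43 to 0.36). Pdgfb differed by -0.27 in Ly6C+ MFs (adjusted p = 0.0989), but passed with array weights (-0.33, adjusted p = 0.00956), and in Ly6C- MFs it passed with WT replicates 1 to 3 only (0.37, adjusted p = 0.00734). Hgf differed by -0.26 in each subset. Its Ly6C- arrays were at 8.90, 8.94 and 8.96 with rosiglitazone, against 9.06, 9.19 and 9.30 without, and did not overlap, as for 1.7% of all genes, but the difference did not pass.

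The hypoxia-response genes were lower beside Vegfa in the rosiglitazone comparison of Ly6C+ MFs, as at day 4. In Ly6C+ MFs 13 of 18 were lower and none higher, with a median of -0.60 against -0.02 over all genes. Of all genes 5.6% were lower and 5.52% higher there. In Ly6C- MFs, where 0.0351% of all genes passed, none of the 18 did. Egln3 differed by -1.99 in Ly6C+ MFs, Ero1a by -1.67 and Bnip3, a mitochondrial death protein, by -1.41. With WT day 2 replicates 4 to 6 only, 4 of the 18 were lower in Ly6C+ MFs, where 309 of the 19938 genes passed. With replicates 1 to 3 only, 16 were lower and 1 higher, where 5435 of the 19938 genes passed. Their mean was 8.72 to 8.86 in rosiglitazone-treated Ly6C+ arrays, close to the 8.80 of untreated WT replicate 4. Of 7 endothelial markers 4 were lower with rosiglitazone in Ly6C+ MFs, where 5.6% of all genes were lower. Their mean level was 6.44 to 6.59 in treated arrays, against 6.40 to 7.18 in untreated WT arrays. The part of either in the Vegfa result was not tested.

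**Figure D5:**
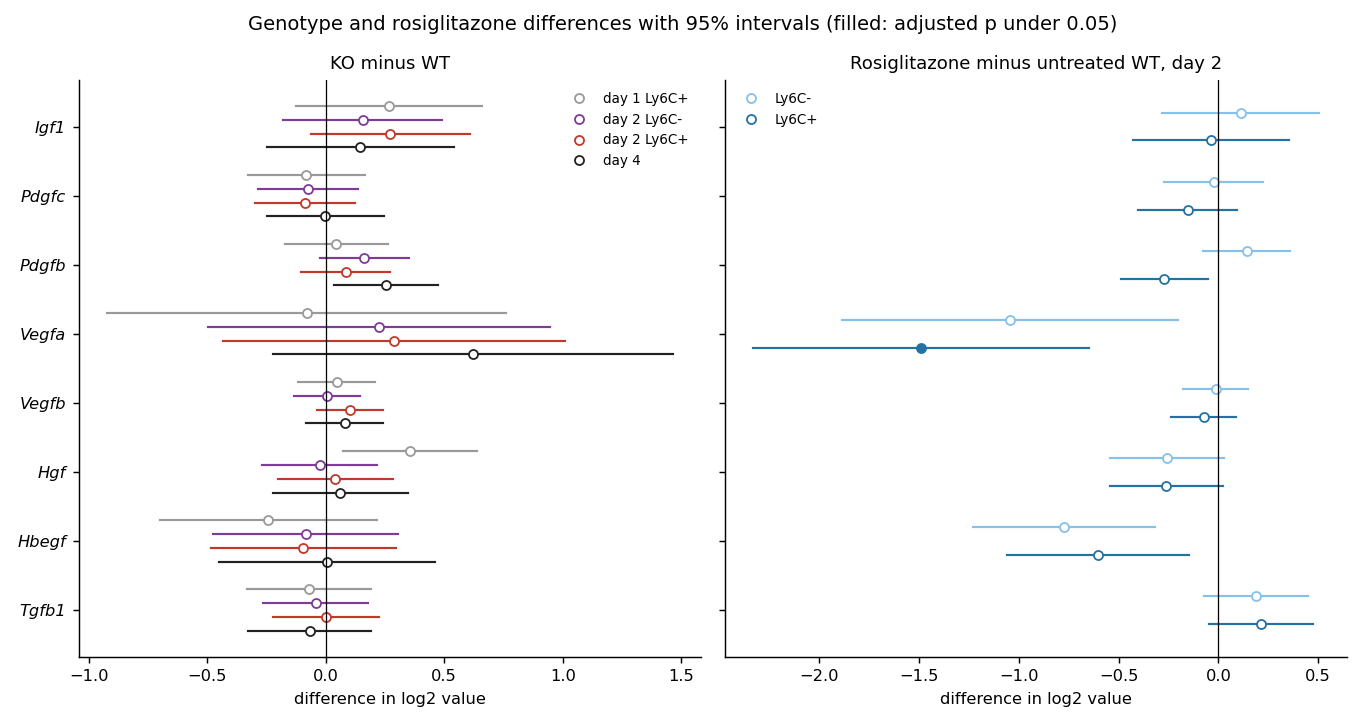
Differences in log2 level (horizontal axes) of the 8 genes with 95% intervals, KO minus WT by day and subset (left) and rosiglitazone minus untreated WT at day 2 (right), with filled points for an adjusted p under 0.05. The filled point is Vegfa in Ly6C+ MFs with rosiglitazone (-1.49), and no KO difference passed.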

How the data were processed

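The measurements were log2 expression values deposited by the authors for 44 Affymetrix mouse arrays, made with RMA (background correction, quantile normalization and probe set summary) per the labels. Software versions and a genome build were not given in the sources used here, and the values were used as deposited. Of 35556 probe sets, 21789 had 1 gene symbol, 1621 several and 12146 none. The probe set with the highest mean stood for each of 19938 genes, and each of the 8 growth factor genes had 1 probe set. Array medians over genes were 6.78 to 6.95, correlations between arrays 0.934 to 0.998, and no arrays were identical. The number of arrays limits the precision.

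limma 3.58.1 (R 4.3.3) fitted 1 mean per group over all 44 arrays, and 19 contrasts were tested with empirical Bayes moderation (34 residual degrees of freedom). P-values were adjusted by Benjamini-Hochberg over all genes, and "passed" means an adjusted p under 0.05. Fold changes are powers of 2 of log2 differences. The fit was tested on simulated data. Tables were made with Python 3.11.15, pandas 2.3.3 and numpy 2.4.6, and plots with matplotlib 3.10.9. The named genes were the 8 genes, their receptors, up to 3 genes per pathway list that passed in the WT day 2 subset difference with the largest differences, and the genes with the highest r over group means. Slc2a1, Bnip3 were chosen after their values were seen. The genes, lists and tests were chosen with earlier results of these data known. Alternatives were array centring, quantile normalization, leaving out dim genes, averaging probe sets, trend and robust moderation, array weights, fitting only the compared groups, a replicate block, WT day 2 replicates 1 to 3 or 4 to 6 only, and leaving out each replicate.

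Replicate numbers were taken as pairs only in the rosiglitazone subset difference, where same-numbered arrays deviated together in 3 of 3 pairs (r 0.134 to 0.443). With the replicate block the count there stayed at 5 of 8.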

Additional observations from a re-analysis of the deposited data

Results flagged for a closer look

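Of 64 pairs of a gene (of the 8) and a group of 4 to 6 arrays, 6 held an array far from its group by Dixon's test. Chance alone gives this in about 1 in 20 pairs, but the pairs share arrays and are not independent. Vegfa was at 9.31 in replicate 4 of WT day 2 Ly6C-, against 11.18 to 11.53 in the other 5 arrays, and at 9.48 in replicate 4 of WT day 2 Ly6C+, against 11.14 to 11.82. Igf1 was at 11.31 in the same Ly6C- array, the highest of its group, against 10.72 to 10.92. Hgf was at 9.26 in replicate 1 of WT day 4, against 9.44 to 9.47. Tgfb1 was at 11.69 in replicate 1 of KO day 1, against 12.00 to 12.04, and at 12.22 in replicate 1 of KO day 4, against 12.00 to 12.03. No difference in response between groups was flagged for the 8 genes.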

How the results depend on the processing

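Of 3256 alternative values of the 152 differences of the 8 genes, 3196 stayed on their side of the threshold, 23 no longer passed and 37 newly passed. No value called in the main fit changed sign. Another 221 alternative values changed sign with neither value past the threshold. Hbegf for KO against WT at day 2 was called lower with replicates 1 to 3 but was higher, not past the test, with replicates 4 to 6. The number of the 8 genes that passed for rosiglitazone in Ly6C- MFs (0) was 1 with the replicate block, 3 with WT day 2 replicates 1 to 3 only, 2 without WT replicate 4 and 0 to 2 on leaving out 1 array. In Ly6C+ MFs (1) it was 2 with quantile normalization, 3 with array weights, 0 with only the compared groups, 3 with the block, 2 with replicates 1 to 3, 0 with replicates 4 to 6, 3 without replicate 4 and 0 to 3 on leaving out 1 array. For KO against WT at day 2 (0) it was 2 in Ly6C- and 1 in Ly6C+ MFs with replicates 1 to 3, and 1 in Ly6C+ (Igf1) with array weights. For rosiglitazone by subset (0) it was 1 (Pdgfb) with array weights and 1 (Pdgfb) with replicates 1 to 3. For day 2 against day 1 (3) it was 1 in KO with quantile normalization and 1 in WT with only the compared groups. The cause was not tested.

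With the replicate block, Hbegf passed for rosiglitazone in Ly6C- (-1.23, adjusted p = 0.0245) and Ly6C+ MFs (-0.96, adjusted p = 0.000109), Hgf in Ly6C+ MFs (-0.34, adjusted p = 0.032), Vegfa in the KO subset difference (-0.25, adjusted p = 0.00388) and between KO days 2 and 1 (-0.38, adjusted p = 0.0079), and Hgf between KO day 4 and day 2 Ly6C- (0.30, adjusted p = 0.0166). Vegfb at WT day 2 against day 1 (adjusted p = 0.0779) and Tgfb1 at WT day 4 against day 2 Ly6C+ (adjusted p = 0.0743) no longer passed. For rosiglitazone against none the block gives WT replicates 4 to 6 no weight, because the treated groups hold replicates 1 to 3 only. Its differences there equal those with WT replicates 1 to 3 only (Hbegf -1.23 in Ly6C- and -0.96 in Ly6C+ MFs). It is therefore not a separate alternative for rosiglitazone against none. Outside the rosiglitazone subset difference the numbers did not meet the criterion for pairs, which asks for r over 0.1 in every pair. This does not show that the arrays were unpaired. In the KO subset difference r was over 0.1 in 4 of 5 same-numbered pairs (0.043 to 0.285) and 4 of 5 arrays correlated best with their own number. In WT it was over 0.1 in 5 of 6 pairs (0.011 to 0.600), and 3 of 6 arrays did so. Pdgfb in the WT subset difference did not pass with quantile normalization (0.18, adjusted p = 0.0895) or array weights (0.20, adjusted p = 0.0843). It also did not pass with only the compared groups (0.29, adjusted p = 0.0741) or with replicates 1 to 3 only. Tgfb1 at KO day 4 did not pass without KO day 2 Ly6C+ replicate 1, 2 or 3 or KO day 4 replicate 1 (adjusted p 0.0649 to 0.115).

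Over all genes, 2218 passed for rosiglitazone in Ly6C+ MFs, but 0 with only the compared groups, 309 with replicates 4 to 6 and 5435 with replicates 1 to 3. In Ly6C- MFs 7 passed, but 16 with array weights, 0 with only the compared groups, 3 with replicates 4 to 6, 602 with the block, 537 without WT replicate 4 of both subsets and 2556 with replicates 1 to 3. For KO against WT in day 2 Ly6C+ MFs 374 passed, but 13 with only the compared groups and 3008 with replicates 1 to 3. With arrays centred on their medians, the share of calls that were higher was 47.0%, not 67.2%, for WT day 2 against day 1, and 66.5%, not 49.6%, for rosiglitazone in Ly6C+ MFs.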

Other observations

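Among the untreated WT day 2 arrays, the 2 sets that differ in Lyz2 did not overlap for 3 of the 8 genes in Ly6C- MFs. In Ly6C+ MFs they did not overlap for 2 of 8, near the share of all genes given below. Hbegf averaged 8.29 in replicates 1 to 3 and 7.38 in replicates 4 to 6 of the Ly6C- MFs, and 8.08 and 7.37 in the same sets of the Ly6C+ MFs, with no overlap in either subset. Pdgfb in Ly6C- MFs averaged 7.38 in replicates 1 to 3 and 7.84 in replicates 4 to 6, again without overlap. Igf1 in Ly6C- MFs (10.76 and 11.03) and Pdgfc in Ly6C+ MFs (6.74 and 6.50) did not overlap either. Of all genes, 23.2% did not overlap between these sets in Ly6C- and 21.5% in Ly6C+ MFs. The sets were formed after seeing Lyz2, and no test was made between them.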
